A study of Homo sapiens with 18 samples.

Results

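The end of the long arm of human chromosome 8 holds a dense cluster of anti-ETO and anti-Flag peaks in a CUT&RUN study of AML1-ETO in Kasumi-1 cells. The stretch was defined as all peaks that start at position 143000000 of chromosome 8 or beyond, in the 4 lists of single antibodies and in 3 lists that the authors derived from them (shared, control-unique and knockdown-unique). Its 2138 intervals were taken from 102388 in these 7 lists. They ran over 2.07 Mb, up to position 145074708 of the hg38 build, which the submitters' processing notes name. The RefSeq annotation of GRCh38.p14 places 79 protein-coding genes there. The stretch was chosen by the density of its peaks in these same lists, so that density is a description and was not tested.

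Kasumi-1 is a human acute myeloid leukaemia line with the t(8;21) translocation, and the cells used here carried AML1-ETO with a Flag tag. Libraries were made with an antibody to ETO, an antibody to Flag or mouse IgG, from control cells and from cells in which the microRNA miR-130a was knocked down, all sorted as GFP-positive 3 days after transduction. These 6 groups had 3 libraries each. The design asks where AML1-ETO is bound after the knock-down.

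AML1-ETO (RUNX1-RUNX1T1) joins the DNA-binding Runt domain of RUNX1, a master regulator of blood cell formation, to most of the ETO protein. The ETO portion recruits corepressors with histone deacetylases, and the fusion is best known for holding back myeloid differentiation genes. In CUT&RUN, a nuclease tethered to an antibody cuts the chromatin around bound sites in permeabilised cells, and the short fragments it frees are sequenced. A microRNA such as miR-130a pairs with messenger RNAs and lowers their stability or translation.

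What limits these values is the form of the data. There was 1 peak list per antibody and condition, with chromosome, start and end of each peak and no height, score or library of origin. The depth behind a call is unknown, how far the 3 libraries of a group differ could not be computed, and no list of IgG peaks was used here. Every comparison below is therefore of 2 lists, with no test over libraries, and the 95% Wilson intervals cover counting error over peaks only. All cells came from 1 line that carries the translocation, and the labels do not say whether the tag lies on its own copy of the fusion or on an added one, or which control construct was transduced.

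Within the stretch, anti-ETO called 145 peaks in control cells and 354 in knockdown cells, of 14264 and 22594 peaks in the whole lists. Anti-Flag called 484 and 863 peaks, of 23162 and 25961. Control anti-ETO peaks covered 5.92% of the bases of the stretch and knockdown anti-ETO peaks 13.4%. Control anti-Flag peaks covered 16.6% and knockdown anti-Flag peaks 31.1%. The 4 lists together covered 33.6%, or 697 kb, so about 1 base in 3 of this stretch lay under a peak of at least 1 list.

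The number of anti-ETO peaks was 2.44 times as high in knockdown as in control, against 1.58 times in the rest of the genome and 1.29 times on the rest of chromosome 8. For anti-Flag the ratio was 1.78 in the stretch, 1.11 in the rest of the genome and 0.775 on the rest of chromosome 8, where the knockdown list was the shorter one. Part of the anti-ETO ratio moved with the length of the lists. When all 4 lists were reduced to the length of the shortest by keeping the widest peaks, the anti-ETO ratio was 1.57 (145 and 228 peaks) and the anti-Flag ratio 1.79 (323 and 577 peaks). Each list then held 14264 peaks, so control and knockdown lists were equally long over the whole genome. These 2 ratios are therefore not to be set beside the 1.58 and 1.11 of the full lists. Across the 20 full windows of 100 kb, anti-ETO peaks were more numerous in knockdown than in control in 19 and equal in 1, and anti-Flag peaks in 19.

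**Figure D1:**
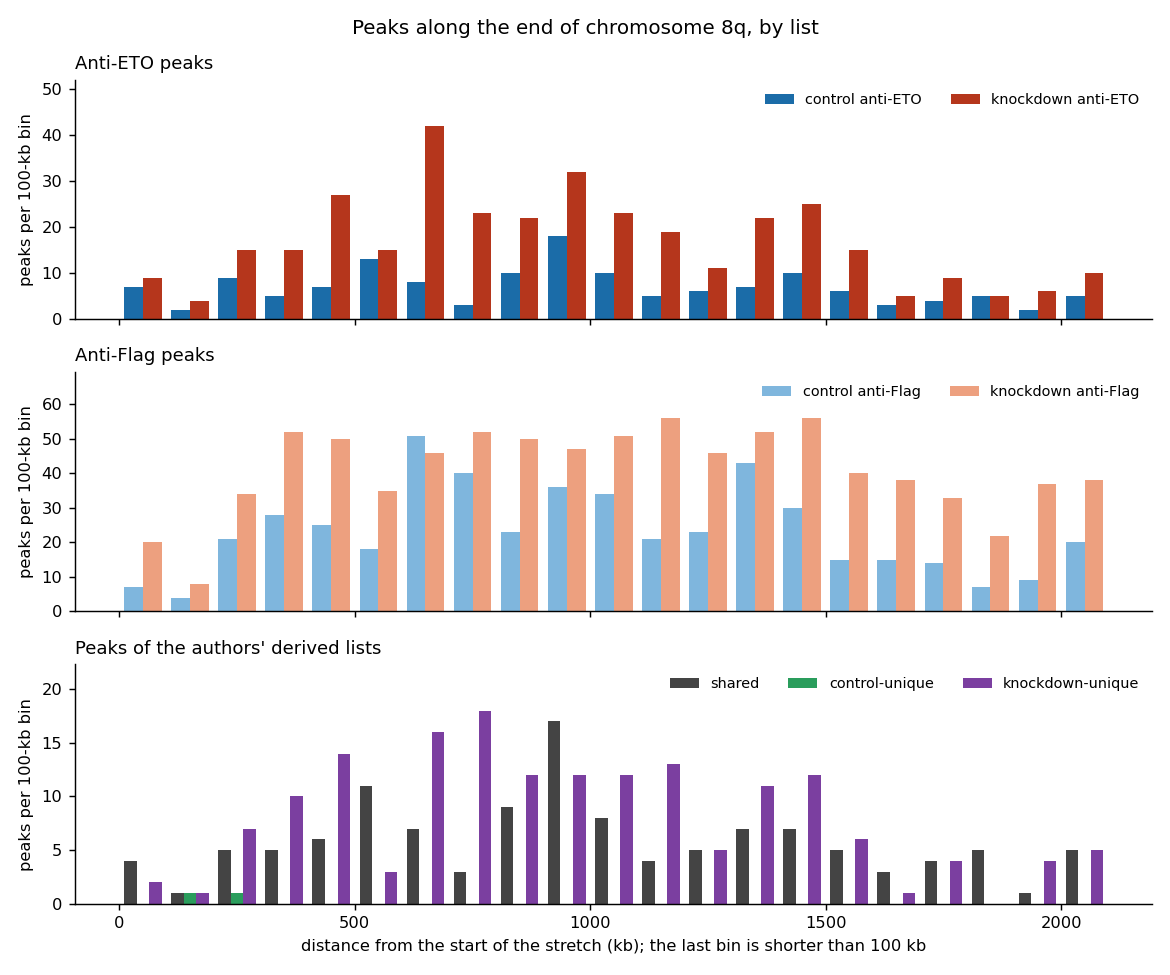
Number of peaks in each 100-kb window (vertical axis) against distance from the start of the stretch in kb (horizontal axis), for anti-ETO (upper panel), anti-Flag (middle panel) and the authors' derived lists (lower panel). The knockdown bars exceed the control bars in 19 of 20 full windows for each antibody, the exception for anti-Flag being the window that starts at 600 kb with 51 control and 46 knockdown peaks.

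At the threshold position itself, the last knockdown anti-Flag peak outside was chr8:142997079-142997351 and the first inside chr8:143000365-143000550. For control anti-ETO the last peak outside was chr8:142984341-142984812 and the first inside chr8:143015985-143016406, 31.2 kb apart. The 1 Mb before the limit held 22 control anti-ETO, 46 control anti-Flag, 34 knockdown anti-ETO and 67 knockdown anti-Flag peaks over 16 protein-coding genes. The first 1 Mb inside held 82, 253, 204 and 394 peaks, in the same order, over 32 genes. The limit, which was set by peak density, is not a sharp step. The first 100 kb inside held 7, 7, 9 and 20 peaks, the second 2, 4, 4 and 8, and the third 9, 21, 15 and 34. Beyond these, knockdown anti-Flag numbers stayed above those of the first window, while anti-ETO numbers lay above it in some windows and below it in others.

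The genes of the stretch are described in order of position. A gene was counted as called by a list when a peak overlapped its body or the 1 kb on either side, a span termed the gene window here. Windows of 52 of the 79 genes overlap another gene's window, so that a peak can count for neighbouring genes, and gene strand and exons were not used.

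The first 246 kb hold genes of the LY6 family, small surface proteins anchored by glycosylphosphatidylinositol, and had the fewest anti-Flag peaks per 100 kb of any block, 7.32 in control and 16.7 in knockdown. LY6E (chr8:143018529-143022409), an interferon-induced surface protein that affects virus entry, had 2 control anti-ETO, 2 control anti-Flag, 3 knockdown anti-ETO and 2 knockdown anti-Flag peaks. LY6S had 1 control anti-Flag peak, 2 knockdown anti-ETO peaks and 6 knockdown anti-Flag peaks, and no control anti-ETO peak. No peak of any list lay in the windows of LY6L, LY6H, a member expressed mainly in brain, or GPIHBP1, which carries lipoprotein lipase across capillary walls. The longest peak-free intervals of the whole stretch were here, 26.2 kb around LY6L and 25.8 kb around LY6H. Both control-unique peaks of the stretch also lay in this block. They were chr8:143136014-143136706, which is 21.2 kb from LY6H, and chr8:143220312-143220752, at the non-coding gene LOC124902036 and 3.14 kb from GPIHBP1.

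Peaks became dense over the next block, which starts at ZFP41, with 12 control anti-ETO, 50 control anti-Flag, 35 knockdown anti-ETO and 90 knockdown anti-Flag peaks in 181 kb. ZFP41, GLI4 and ZNF696 encode C2H2 zinc finger proteins. Control and knockdown anti-ETO peaks numbered 1 and 1 at ZFP41, 2 and 4 at GLI4 and 1 and 1 at ZNF696. Anti-Flag peaks numbered 1 and 4, 6 and 5, and 3 and 6. The fourth-widest shared peak of the stretch, chr8:143288029-143292924 (4896 bp), lay over the boundary of ZNF696. TOP1MT (chr8:143309324-143359977), the mitochondrial topoisomerase, carried 2 control anti-ETO and 6 knockdown anti-ETO peaks against 13 and 25 anti-Flag peaks.

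MAFA (chr8:143428064-143430732), a transcription factor known for driving insulin in pancreatic beta cells, is a short gene that was covered almost throughout. Its window had 3 control anti-ETO, 3 control anti-Flag, 4 knockdown anti-ETO and 3 knockdown anti-Flag peaks, and 82.6% of its bases lay under at least 1 of them. ZC3H3 (chr8:143437659-143541447), a zinc finger protein with a role in messenger RNA export, showed the other form of pattern, with many separate peaks over a long body. It held 6 control anti-ETO, 18 control anti-Flag, 14 knockdown anti-ETO and 41 knockdown anti-Flag peaks, which covered 26.2% of its window.

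From GSDMD to GFUS, 7 genes lie in 82.6 kb, and this block had the highest density of control anti-ETO peaks of the 14 blocks into which the stretch was divided (15.7 per 100 kb). It also had the lowest anti-ETO ratio between conditions, with 13 control and 23 knockdown peaks (1.77 times). GSDMD, the pore-forming protein of pyroptosis, had 2 control anti-ETO, 2 control anti-Flag, 2 knockdown anti-ETO and 3 knockdown anti-Flag peaks. A shared peak of 4527 bp, chr8:143571004-143575530, spanned the junction of MROH6 and NAPRT, the latter encoding the enzyme that makes NAD from nicotinic acid. NAPRT went from 4 control to 2 knockdown anti-ETO peaks, while the covered bases went from 3790 to 4594 bp. Within that shared peak, 2 control anti-ETO peaks lay under 1 wider knockdown peak.

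EEF1D, a subunit of the translation elongation factor complex, held 3 control and 4 knockdown anti-ETO peaks and 4 and 10 anti-Flag peaks. TIGD5, a gene derived from a transposase, held 4 and 3 anti-ETO and 6 and 5 anti-Flag peaks over 67.0% of its window. PYCR3, an enzyme of proline synthesis, and GFUS, which makes GDP-fucose, had 60.2% and 60.0% of their windows covered. Each of these 4 genes was called in all 4 lists.

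The block of ZNF623 and ZNF707, 70.7 kb with only these 2 zinc finger genes, was the most changed in anti-ETO calls and the least in the number of anti-Flag calls. Control anti-ETO called 4 peaks and knockdown anti-ETO 30, a ratio of 7.5, while anti-Flag called 35 and 33, a ratio of 0.943. Knockdown anti-Flag peaks were wider, and covered 76.3% of the block against 43.9% in control. ZNF623 (chr8:143636019-143653730) had 1 control anti-ETO peak of its own near its lower-coordinate end and 9 knockdown anti-ETO peaks, with 9 anti-Flag peaks in each condition. ZNF707 went from 1 to 4 anti-ETO and from 5 to 9 anti-Flag peaks. Knockdown-unique peaks made up 57.3% of the ZNF623 window, the highest share of any gene of the stretch.

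The widest knockdown-unique peak of the stretch, chr8:143649463-143656574 (7112 bp), crossed the upper end of ZNF623. In control, 4 anti-Flag peaks lay within it and covered 81.6% of its length, with no anti-ETO peak. In knockdown, 1 anti-Flag peak spanned it whole and 5 anti-ETO peaks covered 43.2%. Of the 5 widest knockdown-unique peaks, 3 lay in or within 3.12 kb of ZNF623, chr8:143620362-143626001 lay 2.31 kb beyond GFUS at the non-coding gene LOC105375798, and chr8:143906191-143910651 lay 4.5 kb from PLEC. The same picture held for all 5, with 2 to 4 control anti-Flag peaks and no control anti-ETO peak in each.

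**Figure D2:**
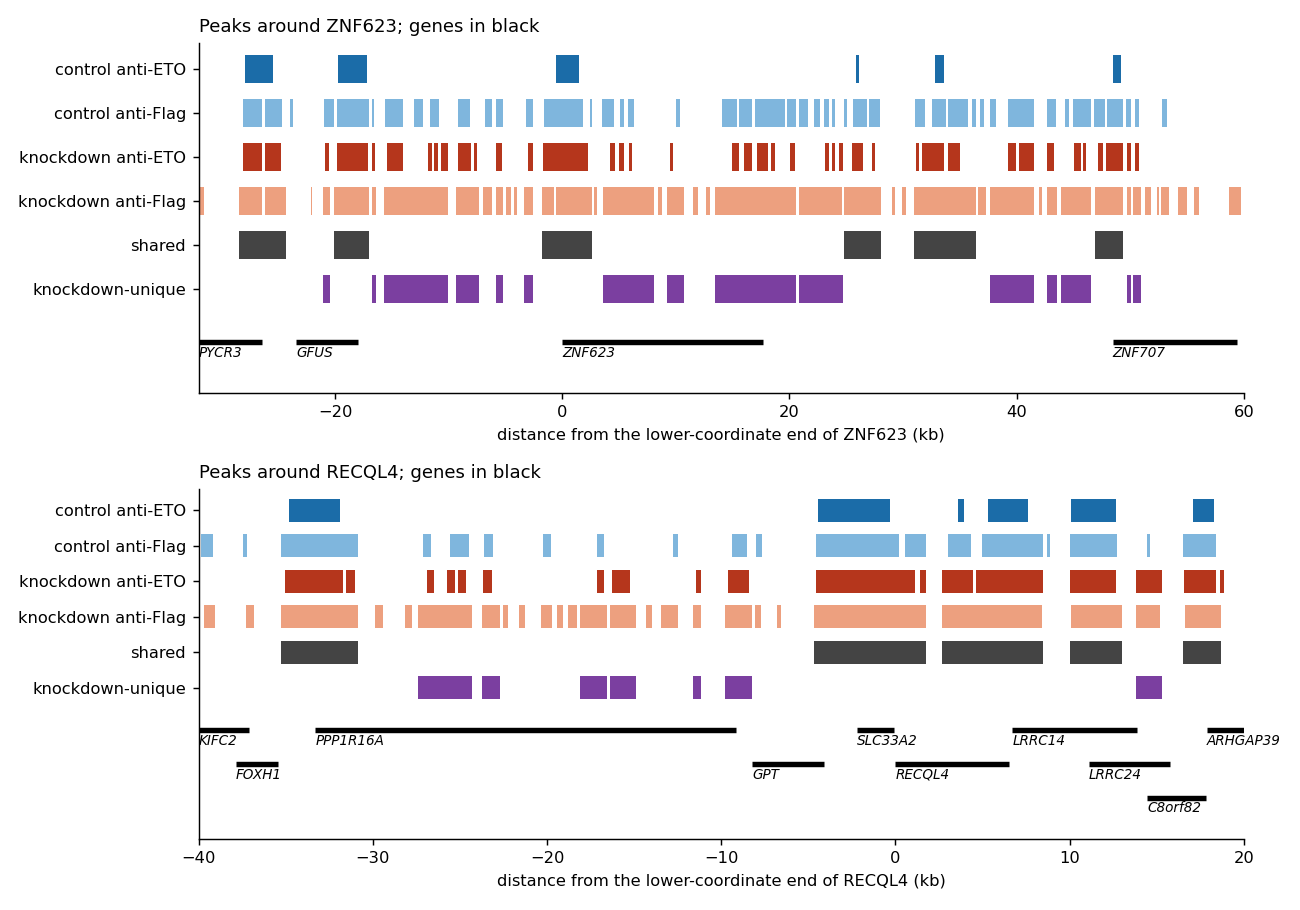
Peaks of each list (coloured bars, rows) around ZNF623 (upper panel) and RECQL4 (lower panel), with protein-coding genes in black, against distance in kb from the lower-coordinate end of that gene. Around ZNF623 many knockdown anti-ETO bars lie where only the anti-Flag row of control has bars. Others lie on control anti-ETO bars or where control has no bar. Around RECQL4 wide bars appear in all 4 single-antibody rows.

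CCDC166, at the start of the next block, is short and had no peak in any list. MAPK15, an atypical MAP kinase, held 1 and 3 anti-ETO and 4 and 6 anti-Flag peaks in control and knockdown. FAM83H, a protein of the keratin cytoskeleton known from enamel disease, had no control anti-ETO peak and 3 in knockdown, with 2 and 6 anti-Flag peaks. IQANK1 (chr8:143734139-143790645) was the gene with the most peaks of those that control anti-ETO did not call. It held 28 control anti-Flag, 11 knockdown anti-ETO and 34 knockdown anti-Flag peaks, and with 11 knockdown-unique peaks it had more of them than any other gene of the stretch.

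SCRIB, a scaffold of cell polarity, held 4 and 6 anti-ETO and 7 and 12 anti-Flag peaks, and 4 shared peaks. PUF60, a splicing factor, went from 2 to 6 anti-ETO and from 3 to 9 anti-Flag peaks. NRBP2, a pseudokinase, went from 3 to 8 anti-ETO and from 6 to 10 anti-Flag peaks, and 5 knockdown-unique peaks covered 23.9% of its window. These genes carried both shared and knockdown-unique peaks side by side.

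PLEC (chr8:143915153-143976745), which encodes plectin, a large linker between intermediate filaments and other parts of the cytoskeleton, had more anti-ETO peaks than any other gene here in both conditions. It held 13 control anti-ETO, 24 control anti-Flag, 22 knockdown anti-ETO and 29 knockdown anti-Flag peaks, and 13 shared and 7 knockdown-unique peaks. Anti-ETO covered 12713 bp of its window in control and 25303 bp in knockdown. The neighbouring plakin gene EPPK1 was sparser, with 2 and 3 anti-ETO and 4 and 9 anti-Flag peaks. PARP10, a mono-ADP-ribosyltransferase, held 7 and 11 anti-ETO and 13 and 20 anti-Flag peaks. GRINA, which lies inside the PARP10 gene body and encodes a membrane protein linked to cell survival, had 1 peak in each of the 4 lists.

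When peaks at most 2 kb apart were joined, a run of 56.7 kb (chr8:143933546-143990282) covered most of PLEC and the lower part of PARP10, and ended at the edge of GRINA. Only 2 runs were longer. One of 84.5 kb went from PYCR3 to ZNF707 and the other of 93.7 kb from TONSL to the lower end of ARHGAP39. The stretch fell into 193 such runs, of which 63 were 1 merged region each, with a median length of 2.76 kb.

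The block from SPATC1 to HGH1 held 11 control anti-ETO and 35 knockdown anti-ETO peaks, 3.18 times as many. SPATC1, a sperm centriole protein gene, accounted for 3 and 11 of these, with 16 and 23 anti-Flag peaks. OPLAH, an enzyme of the glutathione cycle, had no control anti-ETO peak, 1 control anti-Flag peak, 1 knockdown anti-ETO peak and 10 knockdown anti-Flag peaks. EXOSC4, a core subunit of the RNA exosome, held 2 and 4 anti-ETO and 8 and 11 anti-Flag peaks. GPAA1, which helps attach glycosylphosphatidylinositol anchors, had 1 anti-ETO peak in each condition and 2 control and 1 knockdown anti-Flag peaks.

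CYC1 (chr8:144095076-144097525), a haem subunit of the mitochondrial respiratory chain, was among the few genes with less anti-Flag coverage in knockdown. Its anti-Flag peaks went from 4 to 3 and the covered bases from 2363 to 1102 bp, while anti-ETO coverage went from 1556 to 2654 bp. SHARPIN, a subunit of the linear ubiquitin ligase complex, went from 1 to 4 anti-ETO and from 3 to 6 anti-Flag peaks. MAF1, a repressor of RNA polymerase III, had 1 and 2 anti-ETO and 2 and 4 anti-Flag peaks. WDR97 was called by anti-Flag alone, with 1 control and 5 knockdown peaks. HGH1 had 1 anti-ETO peak in each condition and 1 and 2 anti-Flag peaks.

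MROH1 (chr8:144148016-144261926) had more covered bases than any other gene of the stretch, 36% of a window that is among the longest here. It held 6 control anti-ETO, 25 control anti-Flag, 12 knockdown anti-ETO and 65 knockdown anti-Flag peaks. BOP1, a ribosome biogenesis factor, held 3 and 5 anti-ETO and 8 and 12 anti-Flag peaks, whereas SCX, a tendon transcription factor gene inside the BOP1 body, had no peak in any list. HSF1, the heat shock transcription factor, held 3 and 4 anti-ETO and 5 and 11 anti-Flag peaks. DGAT1, which makes triglycerides, had 2 anti-ETO peaks in each condition and 4 and 5 anti-Flag peaks. LOC124902050, which overlaps DGAT1, was called by anti-Flag alone.

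Between SCRT1 and VPS28, anti-ETO called 8 and 25 peaks and anti-Flag 46 and 54, so that the ratio was 3.12 for anti-ETO and 1.17 for anti-Flag. SCRT1, a neural transcriptional repressor, went from 1 to 4 anti-ETO peaks, with 5 and 4 anti-Flag peaks. CATSPERQ, from a sperm calcium channel, had no control anti-ETO peak and 1 in knockdown. ADCK5, a mitochondrial kinase-like gene, went from 1 to 6 anti-ETO and from 11 to 14 anti-Flag peaks over 57.3% of its window. FBXL6, an F-box protein, went from 1 to 2 anti-ETO peaks, and SLC52A2, a riboflavin transporter, had 1 in each condition. CPSF1, a subunit of the messenger RNA cleavage complex, held 2 and 4 anti-ETO and 6 and 6 anti-Flag peaks. The zinc importer SLC39A4 and VPS28, a subunit of the endosomal sorting machinery, each went from 1 to 2 anti-ETO peaks.

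Several heavily covered short genes lay between TONSL and C8orf82, a block of 13 genes in 100 kb where control anti-ETO covered 19.4% of the bases and knockdown anti-Flag 53.3%. TONSL, a repair factor of replication forks, held 3 and 4 anti-ETO and 5 and 10 anti-Flag peaks. ZFTRAF1 and TMEM276 are joined in the read-through gene TMEM276-ZFTRAF1, and 93.2% of the TMEM276 window was covered. KIFC2, a kinesin, had 3 and 2 anti-ETO and 5 and 6 anti-Flag peaks. FOXH1, a partner of SMAD proteins, had 1 anti-ETO and 2 anti-Flag peaks in each condition.

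PPP1R16A, a targeting subunit of protein phosphatase, went from 1 to 10 anti-ETO and from 8 to 16 anti-Flag peaks, with 6 knockdown-unique peaks over 35.0% of its window. Next to it, GPT, the alanine aminotransferase measured in liver tests, SLC33A2 (also MFSD3), a transporter gene, and RECQL4 (chr8:144511288-144517833), a DNA helicase of the RecQ family, share the widest shared peak of the stretch. That peak, chr8:144506625-144513068, was 6444 bp wide. Control anti-ETO covered 64.0% of it, control anti-Flag 93%, knockdown anti-ETO 93.1% and knockdown anti-Flag 100%. The second-widest, chr8:144513946-144519772 (5827 bp), lay over RECQL4 and LRRC14, a leucine-rich repeat protein. The SLC33A2 window was covered throughout and that of RECQL4 to 89.7%. No knockdown-unique peak lay in either, in contrast to the ZNF623 window. RECQL4 went from 4 to 2 anti-Flag peaks, and in each of these 2 shared peaks 2 control anti-Flag peaks lay under 1 knockdown peak. The remaining genes of the block, LRRC24 and C8orf82, were covered to 70.4% and 71.9%.

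ARHGAP39 (chr8:144529179-144700362), which encodes a GTPase-activating protein, is the longest gene of the stretch and had more knockdown anti-Flag peaks than any other. It held 5 control anti-ETO, 21 control anti-Flag, 13 knockdown anti-ETO and 71 knockdown anti-Flag peaks. Its block had the highest anti-Flag ratio of the 14, 3.41 times (22 and 75 peaks), and 69.7% of its merged regions were called by knockdown anti-Flag alone.

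The last zinc finger genes, ZNF251 to ZNF16, lie in 332 kb that were again thinner, with 14 and 25 anti-ETO and 44 and 116 anti-Flag peaks. In this block ZNF251, ZNF34, ZNF517, ZNF7, ZNF250 and ZNF16 had 1 or 2 anti-ETO peaks each in both conditions. ZNF251 went from 2 to 12 anti-Flag peaks, ZNF34 from 3 to 7, ZNF250 from 4 to 11 and ZNF16 from 2 to 8, while anti-ETO peaks numbered 1 in each condition at ZNF251 and ZNF16. RPL8, a ribosomal protein gene, had no control anti-ETO peak, 2 control anti-Flag peaks and 1 peak in each knockdown list. COMMD5, a trafficking protein gene, had 1 peak in each of the 4 lists, and C8orf33 had 2 in each. LOC124902042, a gene of 658 bp next to ZNF250, had its window covered throughout, with 2 and 1 anti-ETO and 3 and 3 anti-Flag peaks.

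**Figure D3:**
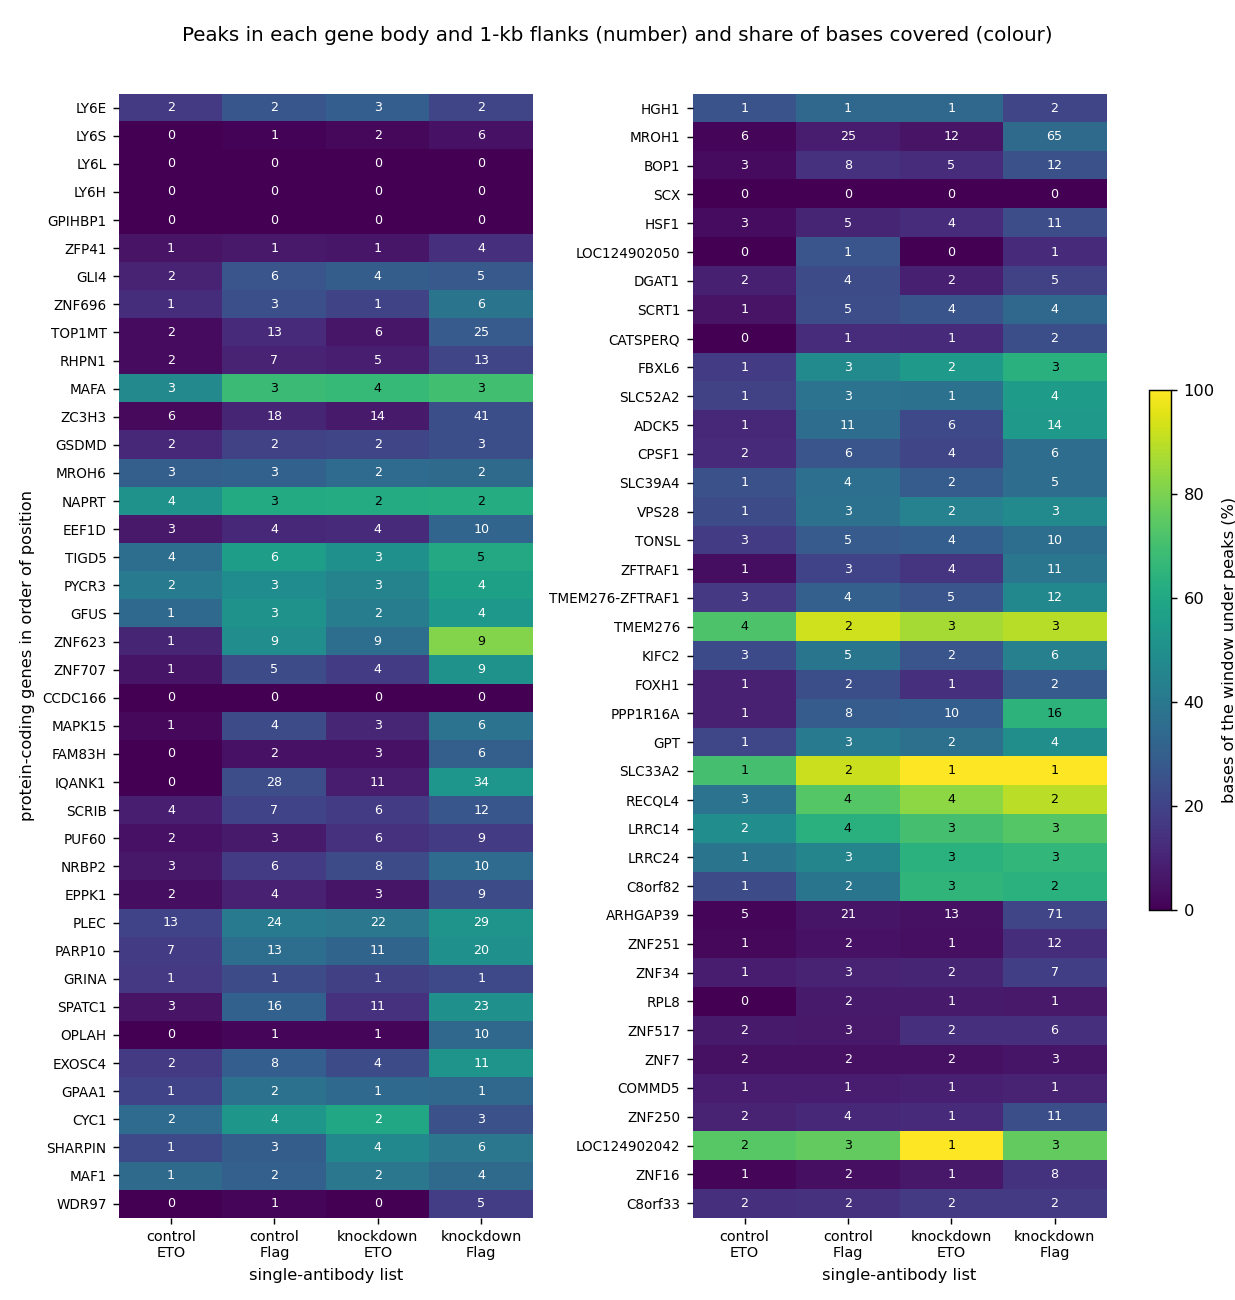
Number of peaks (figures in the cells) and share of bases covered (colour, in percent) in the gene body and 1-kb flanks of the 79 protein-coding genes, in order of position from top left to bottom right, for the 4 single-antibody lists. In the anti-ETO columns the knockdown colour is never below the control colour, and the 5 genes with 0 in every column are LY6L, LY6H, GPIHBP1, CCDC166 and SCX.

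In all, 66 of the 79 genes were called in all 4 lists, against 31% of 19970 protein-coding genes in the genome, and 5 had no call, against 47.2%. Control anti-ETO called 66 genes (genome 41.1%), control anti-Flag 74 (43.8%), knockdown anti-ETO 72 (47.8%) and knockdown anti-Flag 74 (36.4%). The 6 genes with calls in every list but control anti-ETO were LY6S, FAM83H, IQANK1, OPLAH, CATSPERQ and RPL8. No gene of the stretch was called by control anti-ETO and missed by another list. Shared peaks lay at 67 genes (genome 29.5%), knockdown-unique peaks at 45 (12.4%) and control-unique peaks at 0 (12.3%). A share that stands above the genome's is what the choice of a dense stretch gives, so nothing about the genes is read from it.

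Anti-ETO peaks were more numerous in knockdown at 48 genes (genome 24.7%), fewer at 7 (4.7%) and equal at 17. The 7 were MROH6, NAPRT, TIGD5, TMEM276, KIFC2, ZNF250 and LOC124902042. By covered bases, anti-ETO had more in knockdown at all 72 genes it called (genome 41.2% of all genes, and 82.8% of those called) and fewer at none (8.24%). Anti-Flag peaks were more numerous at 49 genes (14.5%) and fewer at 11 (18.7%). Anti-Flag covered more bases at 64 genes (14.9% of all genes, and 32% of those called) and fewer at 10 (31.6%). The direction at the genes of this stretch was thus the genome's for anti-ETO and the opposite of the genome's for anti-Flag.

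Non-coding genes were called as well. Of 27 long non-coding RNA genes, 15 had a control anti-ETO peak in the gene body or 1-kb flanks (13.2% of such genes in the genome), 23 a control anti-Flag peak (14.9%), 22 a knockdown anti-ETO peak (15.9%) and 26 a knockdown anti-Flag peak (12.4%). Of 14 microRNA genes, 3 had a control anti-ETO peak (8.9%), 6 a control anti-Flag peak (10.8%), 5 a knockdown anti-ETO peak (11.5%) and 7 a knockdown anti-Flag peak (9.94%).

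Groups by function are read beside all 79 genes of the stretch, of which 66 were called in all 4 lists and 48 had more anti-ETO peaks in knockdown. All 12 zinc finger genes were called in all 4 lists, with 21 control and 42 knockdown anti-ETO peaks and 58 and 121 anti-Flag peaks. ZC3H3 alone held 6 and 14 of these anti-ETO and 18 and 41 of these anti-Flag peaks. Anti-ETO peaks were more numerous in knockdown at 5 of the 12 genes, fewer at 1 and equal at 6. Median numbers per gene were 1 and 2 for anti-ETO and 3 and 7.5 for anti-Flag, next to 1 and 2 and 3 and 5 over all 79 genes. The 4 genome maintenance genes (RECQL4, TONSL, PARP10 and TOP1MT) had 15 and 25 anti-ETO peaks, and each of the 4 had more in knockdown, as did 48 of the 79. The 7 genes of cytoskeleton, adhesion and polarity had 29 and 54 anti-ETO and 70 and 146 anti-Flag peaks, of which PLEC and ARHGAP39 held most. The 10 genes of cell death, ubiquitin and trafficking went from 14 to 36 anti-ETO peaks, and 10 of the 36 were at PPP1R16A.

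Of the 12 genes of metabolism and mitochondria, 11 were called in all 4 lists, with 17 and 25 anti-ETO peaks, and OPLAH lacked a control anti-ETO call. Of 6 genes of translation and RNA processing, 5 were called in all 4 lists, and RPL8 lacked the same call. Of 8 other transcription regulators, 7 were called in all 4 lists and SCX in none. Of the 4 genes listed as LY6 family (LY6E, LY6L, LY6H and GPIHBP1) only LY6E had a call, and none had a knockdown-unique peak, whereas LY6S, which was not on that list, had 2. The zinc finger genes held 14 knockdown-unique peaks and the cytoskeleton genes 21.

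To see which lists shared a place, peaks of the 4 lists were merged where they overlapped by at least 1 bp, which gave 855 regions in the stretch of 35622 in the genome. All 4 lists called 122 regions, 14.3% (95% interval 12.1 to 16.8), against 24.8% over all regions of the genome. Knockdown anti-Flag alone called 407, or 47.6% (44.3 to 51.0, genome 22.3%). Both anti-Flag lists and knockdown anti-ETO called 130 (15.2%, genome 7.29%), and both anti-Flag lists without anti-ETO 123 (14.4%, genome 3.77%). Both antibodies in knockdown alone called 41 (4.8%), near the genome's 5.2%. No region of the stretch was called by control anti-ETO alone (genome 1.4%).

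Of the combinations above, the 5 with knockdown anti-Flag were the most frequent in the stretch. Among these 5, control anti-ETO called a region only where the other 3 lists did. They held 823 of the 855 regions, 96.3%, against 62.6% of the regions in the rest of the genome. Because the 5 are the most frequent of this same stretch, a high share here is built in and nothing is read from it. Of the 124 regions with a control anti-ETO call, 122 had all 4 calls, 98.4% against 66.5%, and the other 2 were the control-unique peaks. Only 7 regions had anti-ETO and no anti-Flag (0.819%, genome 13.4%). In the stretch, anti-Flag called 3.34 peaks per anti-ETO peak in control and 2.44 in knockdown, against 1.61 and 1.13 in the rest of the genome.

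**Figure D4:**
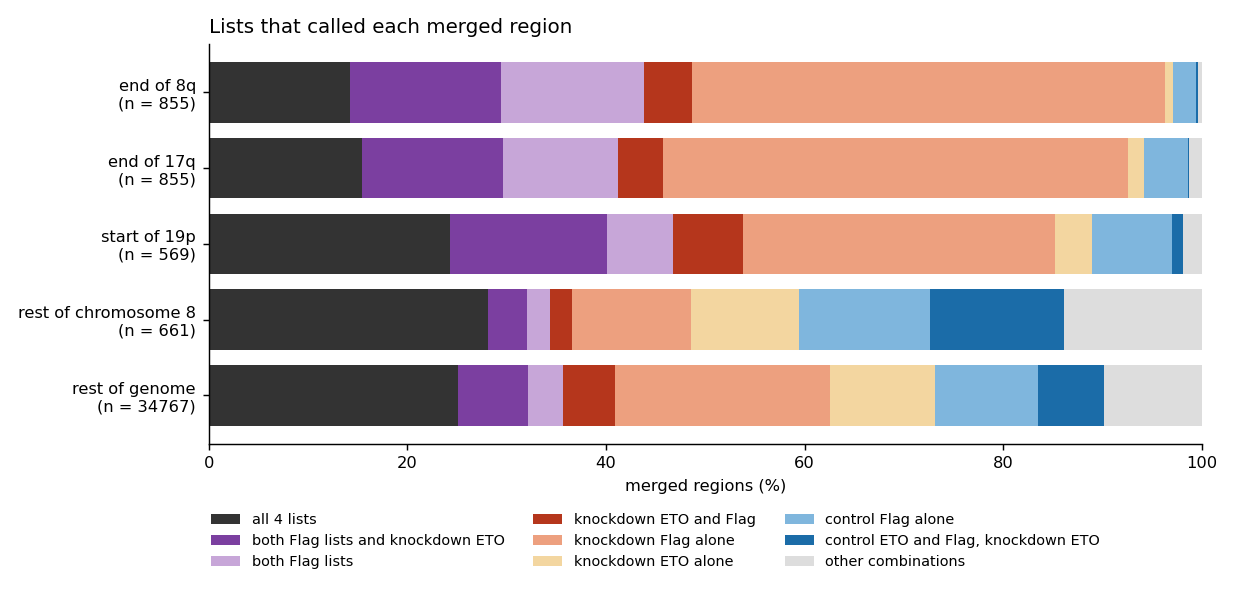
Share of merged regions (horizontal axis, percent) by the lists that called them, for the end of 8q, the end of 17q, the start of 19p, the rest of chromosome 8 and the rest of the genome, with the number of regions in brackets. Knockdown anti-Flag alone is the largest class at the ends of 8q (47.6%) and 17q (46.8%), and the class of all 4 lists is larger in the rest of the genome (25.1%) than in the end of 8q (14.3%).

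Regions called only in knockdown numbered 455 (53.2%, genome 37.8%) and regions called only in control 20 (2.34%, genome 13.4%). By antibody, anti-ETO called 181 regions in knockdown and not in control (21.2%, genome 26.6%) and 0 in control and not in knockdown (genome 3.46%), a count whose upper 95% limit is 0.447%. Anti-Flag called 448 in knockdown and not in control (52.4%, genome 28.3%) and 25 the other way (2.92%, genome 22.2%). Regions with anti-ETO only in knockdown thus made up a smaller share of all regions here than in the genome. Those with anti-Flag only in knockdown made up a larger one. Regions with any anti-ETO call were a smaller part here, 305 of 855 (35.7%) against 63.7% in the genome. Of these 305, 181 had anti-ETO only in knockdown, a larger share than the 9471 of 22695 in the genome.

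Peak by peak, all 145 control anti-ETO peaks overlapped a knockdown anti-ETO peak (95% interval from 97.4%), against 90.9% in the rest of the genome. Of the 484 control anti-Flag peaks, 457 (94.4%) overlapped a knockdown anti-Flag peak, against 61.4%. In the other direction, 132 of 354 knockdown anti-ETO peaks (37.3%, 32.4 to 42.4) overlapped a control anti-ETO peak, against 56.0%. Of those 354, 288 (81.4%) overlapped a control anti-Flag peak and 340 (96.0%) a knockdown anti-Flag peak. The sites of the control lists were thus almost all present in the longer knockdown lists, as 1-bp overlaps. When at least 50% of both peaks had to overlap, 60.0% of the control anti-ETO and 51.9% of the control anti-Flag peaks still did.

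The control anti-Flag calls without control anti-ETO formed 276 regions, and 133 of them (48.2%, 42.4 to 54.1) had an anti-ETO call in knockdown, against 44.0% in the rest of the genome. Control anti-Flag covered a median of 544 bp in these 133 and 317 bp in the other 143. By these medians, the regions with an anti-ETO call in knockdown had more bases under control anti-Flag. Such a region can hold several control anti-Flag peaks, because knockdown peaks helped to join them. Wider regions also meet an anti-ETO peak more easily, so nothing further is read from these medians.

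At the 122 regions with all 4 calls, the bases covered by each list could be compared at the same place. The median number of bases under anti-ETO was 745 bp for control and 1237.5 bp for knockdown. Knockdown had more in 118 of 122 regions, 96.7% against 81.1% in the rest of the genome. The median difference was 405 bp, against 196 bp. Anti-Flag covered 1184 and 1240 bp, and more in knockdown in 82 regions and fewer in 40. That is 67.2% of regions with more anti-Flag bases in knockdown, against 29.7% in the rest of the genome, where the median difference was -90.0 bp and here 90.5 bp. How much of a larger coverage follows from read depth or from the calling threshold was not tested.

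The authors' derived lists split peaks called by both antibodies into those present in both conditions, in control only and in knockdown only. The stretch held 122 shared peaks (1.40% of that list), 2 control-unique peaks (0.0654%) and 168 knockdown-unique peaks (3.64%). Of the dual-antibody peaks of the whole genome, 25% in control were control-unique and 33.7% in knockdown were knockdown-unique. Rebuilt from the 4 lists at one length, the stretch gave 109 shared, 5 control-unique and 84 knockdown-unique peaks, so the number of knockdown-unique peaks moved with list length while their excess over control-unique peaks stayed.

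Shared peaks had a median width of 1531 bp, and 98 of the 122 (80.3%) overlapped a protein-coding gene. Knockdown-unique peaks had a median width of 807 bp, and 98 of the 168 (58.3%) overlapped a protein-coding gene. The share of bases in protein-coding genes and the same shares over the genome were not computed. Wider peaks also meet a gene more easily, so no preference for genes is read from these counts. Of the 168 knockdown-unique peaks, 21 were wider than 2 kb, while all the rest of the genome had 18 such peaks. The 168 were spread over the stretch, with a median of 8.5 per 100 kb and a highest number of 18, and 1 full window had none.

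All 168 knockdown-unique peaks lay where control cells had no anti-ETO call. This follows from the lists, because all 145 control anti-ETO peaks here overlapped a control anti-Flag peak. A knockdown-unique peak is by definition not at a control dual-antibody peak. A control anti-Flag peak was present at 128 of the 168, 76.2% (69.2 to 82), against 55.3% in the rest of the genome. There, 7.08% had a control anti-ETO call, and 89.5% of control anti-ETO peaks overlapped control anti-Flag. Knockdown-unique peaks were wider in the stretch, with a median of 807 bp against 510 bp, which eases a 1-bp overlap. The stretch was also chosen for its peak density, so its higher share with control anti-Flag is not read further. At 26 of the 168, 2 or more control anti-Flag peaks lay within the peak. The remaining 40 (23.8%) had no control call of either antibody. Conversely, both control-unique peaks kept their anti-ETO call in knockdown and lacked anti-Flag there. Most knockdown-unique peaks of the stretch thus lacked only the anti-ETO call in control, a lack that their definition fixes here. The control-unique peaks, which lacked anti-Flag in knockdown, were only 2.

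The lists also differed in where their peaks lay relative to genes. A gene boundary is here the start or end of any annotated gene, and a peak was counted near one when its centre was within 1 kb. In the stretch 19% of all bases were that close. Of control anti-ETO peaks 53.8% (45.7 to 61.7) lay near a boundary, as did 55.7% (46.9 to 64.2) of shared peaks. For knockdown anti-ETO the share was 32.8%, for control anti-Flag 27.3% and for knockdown anti-Flag 21.8%. Of knockdown-unique peaks 19.6% (14.3 to 26.3) lay near a boundary, close to the share of the bases, and 52.4% lay inside gene bodies.

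Among merged regions, 55.7% of those called in all 4 lists lay near a boundary and 22.3% of those called by both anti-Flag lists and knockdown anti-ETO. The share was 14.6% for regions called by both antibodies in knockdown alone, 12.3% for knockdown anti-Flag alone and 10.6% for both anti-Flag lists without anti-ETO. Of the regions called by knockdown anti-Flag alone, 69.8% lay inside genes. In the rest of the genome the corresponding shares for peaks were higher, 59.6% for control anti-ETO, 60.3% for shared and 32.5% for knockdown-unique peaks. The difference was smaller for the shared and control anti-ETO peaks than for the anti-Flag lists, where the rest of the genome had 46.9% in control and 38.4% in knockdown.

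**Figure D5:**
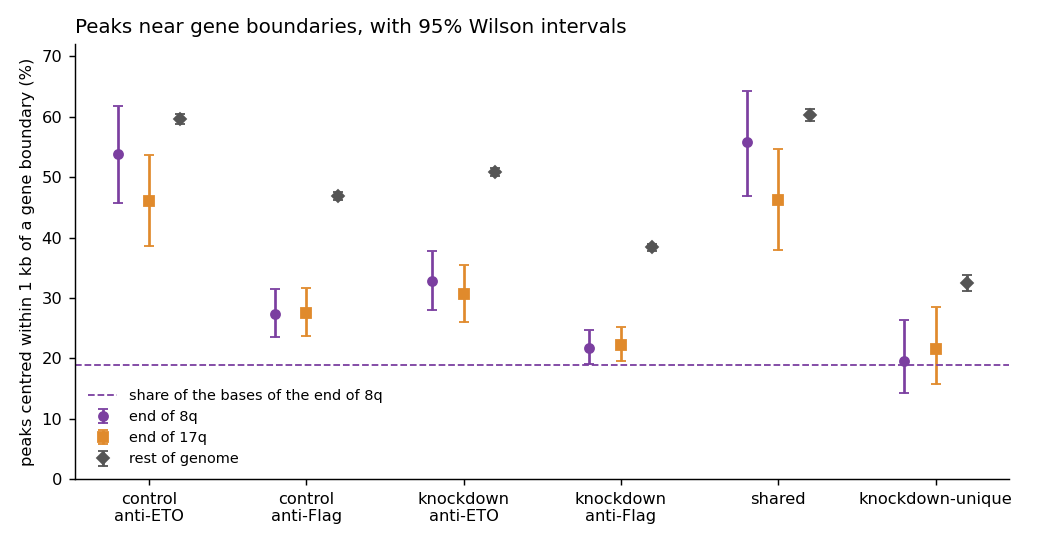
Share of peaks centred within 1 kb of a gene boundary (vertical axis, percent) by list, with 95% Wilson intervals, for the end of 8q, the end of 17q and the rest of the genome. The dashed line marks the 19% of bases of the end of 8q that are as close to a boundary, and the knockdown-unique peaks of the end of 8q (19.6%) lie on it.

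The genome has other gene-rich chromosome ends that resemble this one. Chromosome 17 from 81 Mb on also gave 855 merged regions, and the first 2.1 Mb of chromosome 19 gave 569. At the end of 17q anti-ETO called 163 and 363 peaks (2.23 times) and anti-Flag 479 and 859 (1.79 times), with 1 control-unique and 158 knockdown-unique peaks. At the start of 19p the ratios were 1.92 and 1.40, with 9 and 130 unique peaks. The share of knockdown-unique peaks with a control anti-Flag call was 77.2% at 17q, next to 76.2% at 8q. All 163 control anti-ETO peaks of 17q overlapped a knockdown anti-ETO peak, and 0 of its 158 knockdown-unique peaks had a control anti-ETO call. Regions called only in knockdown were 53.0% at 17q, next to 53.2% at 8q. In these counts the end of 8q lay close to the end of 17q.

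In width, the order of the ends of 8q and 17q depended on the list. Knockdown anti-Flag covered 31.1% of the 8q stretch of 2.07 Mb and 25% of the 17q stretch of 2.24 Mb, with median widths of 473 and 427 bp. Knockdown anti-ETO covered 13.4% and 12.9%, with median widths of 476.5 and 511 bp. The widest knockdown-unique peak was 7112 bp at 8q, 3131 bp at 17q and 3836 bp at 19p, whereas the widest shared peak was 6444 bp at 8q and 11036 bp at 17q. No test of these differences between stretches was possible with 1 list per group.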

How the data were processed

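AML1-ETO binding was measured by CUT&RUN in 18 Kasumi-1 libraries, in 6 groups of 3 by their titles. Each condition used 200000 sorted cells, libraries were sized to 150 to 400 bp, and about 40 M paired 75-bp reads were planned for each, per the labels' protocols. The authors deposited 9 interval lists with chromosome, start and end only. The members came from 7 of them, and the lists of dual-antibody peaks per condition served for totals. Per the submitters' processing notes, fastp 0.19.5, Bowtie2 2.3.5, MACS2 2.2.5, HOMER 4.8 and the builds hg38 and sacCer3 were involved. Their roles, the calling threshold, the use of IgG and the handling of replicates are not given in the sources used here. A lower threshold or deeper library lengthens a list, and so adds unique peaks to its condition.

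Positions are written from 1. Genes came from the RefSeq table of GRCh38.p14, with 59788 positioned genes of any kind, the same assembly as hg38. Intervals were compared in Python 3.11.15 with numpy 2.4.6 and pandas 2.3.3 at an overlap of at least 1 bp, and scipy 1.17.1 gave the Wilson intervals. The functions were tested on simulated lists. Alternatives were other overlap rules, list lengths, flanks, boundary distances and a start 1 Mb later.

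The stretch, its gene groups and the rules were chosen with earlier results of these data known. All 79 protein-coding genes were accounted for. Genes to be named with values were the 30 with the most bases under the 4 lists and the members of the fixed groups, and the named peaks were the 5 widest shared and knockdown-unique peaks and both control-unique peaks. A gene that this rule selects is not reported here. LY6S, CCDC166, MROH6, WDR97, CATSPERQ, C8orf33, C8orf82, LRRC24, TMEM276 and the LOC genes were named to complete the order of position, with their values in view. A planned comparison of motifs in gene starts was not run, and no sequence is given.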

Additional observations from a re-analysis of the deposited data

How the results depend on the processing

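Of 48 alternative values for 20 results, 26 stayed within their counting error or within 1.5 times and 22 moved further. The comparison areas were not recomputed under the alternatives, so a change of direction against them was not assessed. The share of regions called in all 4 lists was 19.4% with gaps of up to 500 bp joined, 18.7% with lists of one length and 11.8% with the stretch starting 1 Mb later. The share called by knockdown anti-Flag alone was 43.4% with gaps joined, 52.8% with the wider 50% of each list and 51.4% starting 1 Mb later. The share called only in knockdown was 48.0% with gaps joined and 56.7% starting 1 Mb later. The ratio of knockdown to control peaks was 1.57 for anti-ETO with lists of one length and 2.03 for anti-Flag starting 1 Mb later. Control peaks found again in knockdown were 60.0% for anti-ETO and 51.9% for anti-Flag with 50% overlap of both peaks, 91.5% for anti-Flag with 100 bp, and 94.5% for anti-ETO with lists of one length, an alternative chosen after seeing the data. Lists of one length gave 5 control-unique and 84 knockdown-unique peaks. With 10-kb flanks, 70 genes had a knockdown-unique and 1 a control-unique peak. Near a boundary lay 37.7% of shared and 10.7% of knockdown-unique peaks within 500 bp, and 65.6% and 39.3% within 2.5 kb. No paired analysis was possible because the lists carry no replicate, and leaving out replicates was not run for the same reason. Depth was unknown, so it cannot be said which calls it limits.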

Other observations

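The third-widest control anti-ETO peak of the stretch, chr8:145000933-145003619 (2687 bp), lay at the non-coding gene ZNF252P-AS1, 48.8 kb from the nearest protein-coding gene, C8orf33, and was chosen here after its values were seen.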
